A study of Rattus norvegicus with 6 samples.

Results

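The Wnt pathway was described here through 40 listed ligands, receptors, antagonists, transducers and nuclear effectors in rat primary motor neuron cultures. A gene was taken as measured where a transcript cluster of the array carried its symbol and no other. This held for 34 of the 40, of 14506 genes named in this way in the whole table, and a gene with several clusters was represented by the one with the highest mean. Wnt7a, Wnt11, Fzd7, Fzd10, Dvl2 and Tcf7l2 had no such cluster and are not analysed here. The cultures came from rat embryos at embryonic day 13.5 and were kept for 2 days in vitro. One group of 3 was then exposed to 1 microM camptothecin for 2 h, and the other group of 3 to an equivalent volume of DMSO, the solvent. No transgene or genetic change was stated for either group. Camptothecin holds topoisomerase 1, an enzyme that relaxes DNA ahead of RNA polymerase, on the DNA it has nicked. RNA was hybridised to Affymetrix Rat Gene ST arrays, 1 per culture sample, and values are log2 expression as the authors deposited them. The labels call the samples biological replicates but do not say how the cultures were kept apart, and the p-values reflect only the spread among these 6 samples, which may be technical.

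Wnt proteins are secreted, lipid-modified signals that bind Frizzled receptors together with the coreceptors Lrp5 and Lrp6. In the beta-catenin branch the occupied receptors recruit Dishevelled, the destruction complex of Axin, Apc and Gsk3b stops marking beta-catenin for degradation, and beta-catenin joins TCF and LEF factors at target genes. In the developing spinal cord, Wnt signals from the dorsal midline act on progenitor growth and dorsal patterning, and in the mouse other Wnt and Frizzled genes guide axons.

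The pathway did not move as a block. Of the 34 measured genes, 4 rose, 3 fell and 27 did not pass the test. Genes passed at an adjusted p under 0.05 in limma, with the Benjamini-Hochberg method applied to all 29214 clusters together. The 7 genes called are 20.6% of those measured, against 20.7% of all 14506 genes called, so in this fit the share lay at the background. The 4 that rose are 11.8%, against 11.3% of all genes, and the 3 that fell are 8.82%, against 9.35% of all genes. The median log2 change, camptothecin minus DMSO, was 0.09 over the Wnt genes and 0.06 over all genes. The genes that rose were the receptors Fzd1 and Fzd4, the secreted antagonist Sfrp2 and the Dishevelled gene Dvl3. Those that fell were the coreceptor Lrp6, the scaffold Axin1 and the transcription factor Tcf7l1.

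**Figure D1:**
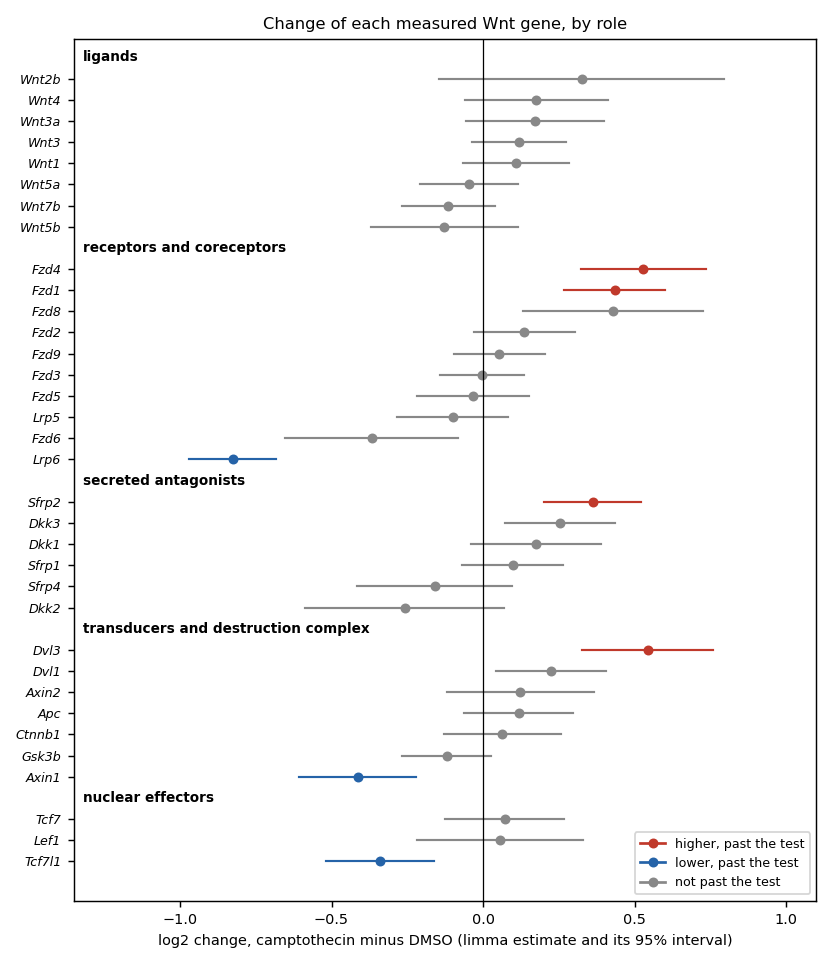
Log2 change of each of the 34 measured Wnt genes (x axis, camptothecin minus DMSO), grouped by role down the page. Points are limma estimates from 3 arrays per treatment, lines their 95% intervals, and colour marks the genes past the test. Lrp6 lies farthest to the left at -0.83, and Dvl3 and Fzd4 farthest to the right at 0.54 and 0.53.

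The direction split depended on how arrays were scaled. Array medians were 6.31 to 6.33 with camptothecin and 6.22 to 6.28 with DMSO. With each array centred on its median, 4 Wnt genes were higher and 4 lower, while 6.29% of all genes were higher and 11.1% lower. With each array centred on 57 ribosomal protein genes, which shifts every change by -0.25, 1 was higher (Dvl3) and 12 were lower, while 2.43% of all genes were higher and 30.3% lower. Centring shifts every change by the same amount (-0.07 for medians), smaller in size than any of the 7 called changes. Their signs could therefore not turn under these 2 scalings. They were also the same under quantile normalization again.

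**Figure D2:**
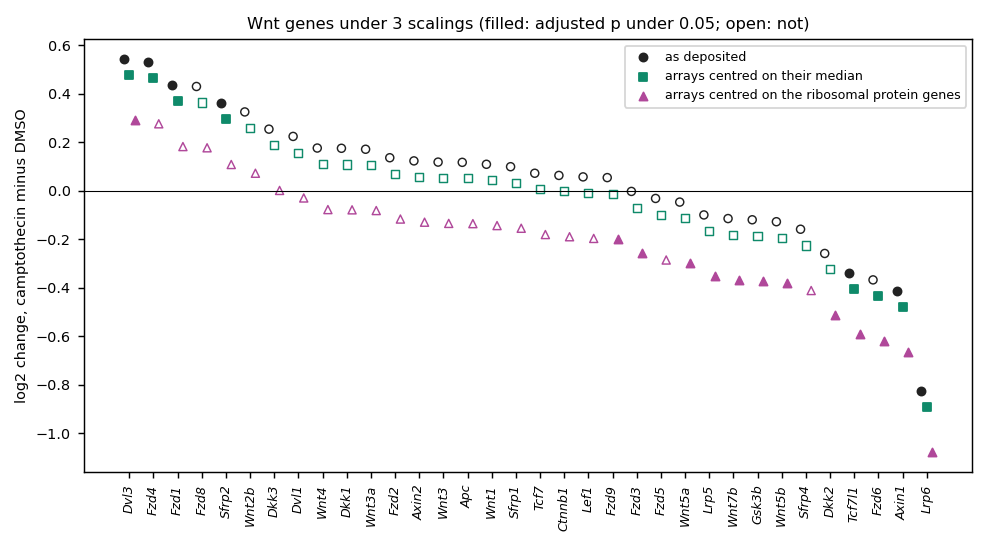
Log2 change of the 34 Wnt genes (y axis, camptothecin minus DMSO), ordered by the deposited value, under the deposited scale, centring on array medians and centring on ribosomal protein genes. Filled symbols passed the test within their own scaling. The last scaling lies below the deposited one for each gene, and 7 genes stay above 0 there.

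Arrays correlated at 0.992 to 0.995 (Pearson's r across clusters) within a treatment, and at 0.983 to 0.985 where the treatments differed. The labelled cell type was checked against markers. Of 8 measured motor neuron markers 5 lay below 6.28, the median brightness over all clusters, as did 6034 of all 14506 genes. Isl1 and Slc18a3 were among the 5, while Lhx3, Foxp1 and Ret lay above 6.28. Prph rose (0.31) and Foxp1 fell (-0.34), and Mnx1 and Chat were not measured by a cluster of their own. Of 10 spinal interneuron markers 1 lay below 6.28. Among these 10, 0 rose and 5 fell by limma (1 and 5 at an unadjusted p under 0.05), against 9.35% of all genes falling. These were Slc6a5 (-1.79), Gad2 (-0.99), Slc17a6 (-0.80), Gad1 (-0.57) and Pax2 (-0.25), which span 40.1 to 91.2 kb. Of all genes of 30 to 100 kb, 16.2% fell. The other 5 markers had changes above 0 and did not pass. They were Lhx5 (0.26), Slc32a1 (0.23), Evx1 (0.15), Lbx1 (0.12) and Lhx1 (0.10), which span 1.82 to 8.44 kb. The median change of the 10 interneuron markers was -0.08, and their mean level was 7.91 to 8.02 with camptothecin and 8.28 to 8.35 with DMSO. Their part in the changes of the Wnt and pathway genes was not tested. Camptothecin replicate 3 stood apart in Sulf1, listed as a floor plate marker, with 9.96 against 8.39 and 8.62 on the other camptothecin arrays and 8.69 to 9.07 with DMSO, and in the fibroblast marker Dcn, with 7.53 against 5.83 and 5.54, and 5.91 to 6.73 with DMSO. No other measured fibroblast marker was highest on this array among the camptothecin arrays. Of the other floor plate markers, Spon1 read 9.08 there, against 8.29 and 8.43 on the other camptothecin arrays, and Ntn1 8.09 against 7.68 and 7.88. Shh read 6.21 against 6.21 and 6.10, and Foxa2 6.19 against 6.06 and 6.05. Sulf1 and Dcn were singled out after their values were seen. In such bulk samples, fewer cells of a type and less RNA per cell cannot be told apart.

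None of the measured Wnt ligands passed the test on the deposited scale. Of 8 measured ligands, 4 lay below the median brightness, 5 had a change above 0 and 3 below, and limma called 0 of them at the adjusted threshold and 0 at an unadjusted p under 0.05. With ribosomal centring, where 30.3% of all genes were lower, 7 changes were below 0 and 3 ligands were called lower. These were Wnt5a (-0.30, adjusted p = 0.0227 by limma), Wnt5b (-0.38, adjusted p = 0.0413) and Wnt7b (-0.37, adjusted p = 0.0132). Wnt2b had the largest change in size. It read 6.16, 5.30 and 5.69 with camptothecin, against 5.40, 5.30 and 5.48 with DMSO. The camptothecin arrays spanned a wide range and overlapped DMSO, and the change of 0.32 (SE 0.20, n = 3 per treatment) had an adjusted p of 0.319 by limma. Wnt1 and Wnt3a, the dorsal midline ligands, averaged 5.59 ± 0.05 and 6.44 ± 0.03 with camptothecin, against 5.48 ± 0.09 and 6.27 ± 0.17 with DMSO (SD, n = 3). The changes were 0.11 for Wnt1 (95% interval -0.07 to 0.28) and 0.17 for Wnt3a (-0.06 to 0.40).

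Wnt4 differed by 0.18 (SE 0.10) and Wnt3 by 0.12 (SE 0.07). Among the ligands, Wnt3 alone had all 3 camptothecin values above DMSO, at 6.14 to 6.23 against 6.04 to 6.12. Wnt7b was the other ligand without overlap, but on the low side, at 6.56 to 6.62 with camptothecin and 6.66 to 6.77 with DMSO (change -0.11, SE 0.07). Such separation is common here, since 42.6% of all genes had groups that did not overlap, and 17 of the 34 Wnt genes (50%) did. Wnt5a and Wnt5b, ligands best known for signalling apart from beta-catenin, had differences of -0.05 (SE 0.07) and -0.13 (SE 0.10).

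Among Frizzled receptors, Fzd4 and Fzd1 rose. Fzd4, which in mouse and human is also the receptor for norrin in retinal vessels, read 9.50, 9.26 and 9.41 with camptothecin, against 8.83, 8.79 and 8.95 with DMSO. All camptothecin arrays lay above all DMSO arrays. Fzd4 was 1.44-fold higher, a log2 change of 0.53 (SE 0.09, adjusted p = 0.0078 by limma). Fzd1 read 7.10, 7.04 and 6.99 with camptothecin, against 6.56, 6.69 and 6.58 with DMSO, again without overlap. It was 1.35-fold higher (0.43, SE 0.07, adjusted p = 0.00744 by limma). With ribosomal centring the changes were 0.28 for Fzd4 and 0.18 for Fzd1, and neither passed (adjusted p = 0.0915 and 0.108 by limma).

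Fzd8 missed the threshold with a difference of like size. It read 6.46, 6.95 and 6.83 with camptothecin, against 6.28, 6.32 and 6.35 with DMSO, and camptothecin replicate 1 lay close to DMSO (0.43, SE 0.13, adjusted p = 0.0569 by limma). Without camptothecin replicate 1 Fzd8 passed, at 0.57 (adjusted p = 0.00892 by limma). Fzd6 had the lowest change among the Frizzled genes and was dim. It read 4.89, 5.04 and 4.62 with camptothecin, against 5.25, 5.09 and 5.32 with DMSO (-0.37, SE 0.12, adjusted p = 0.0816 by limma), and it passed with arrays centred on their median (adjusted p = 0.046).

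Fzd3, a receptor needed for axon tract formation in the mouse, gave nearly the same reading on every array. It averaged 10.66 ± 0.01 with camptothecin and 10.67 ± 0.01 with DMSO (SD, n = 3), and the 95% interval of its change ran from -0.14 to 0.14. The changes of Fzd2, Fzd9 and Fzd5 were 0.14 (SE 0.07), 0.05 (SE 0.06) and -0.03 (SE 0.08), and none of them passed.

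The coreceptor Lrp6 had the largest change of the Wnt genes measured. It read 9.55, 9.49 and 9.55 with camptothecin, against 10.36, 10.37 and 10.34 with DMSO. The groups lay far apart beside a spread of 0.03 and 0.02 (SD). Lrp6 fell to 56.4% of its DMSO level, a log2 change of -0.83 (SE 0.06, adjusted p = 0.000275 by limma). It was the one member past limma's treat test against a 1.2-fold change (adjusted p = 0.00149) and passed in each of the 17 alternatives run, with changes from -1.08 to -0.81. Lrp5, its close relative, was dim, at 6.15 ± 0.08 with camptothecin and 6.25 ± 0.08 with DMSO (SD, n = 3). Its change was -0.10 (SE 0.08, 95% interval -0.28 to 0.08). The difference between the changes of Lrp6 and Lrp5 was not tested, since probes of different genes respond on different scales.

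**Figure D3:**
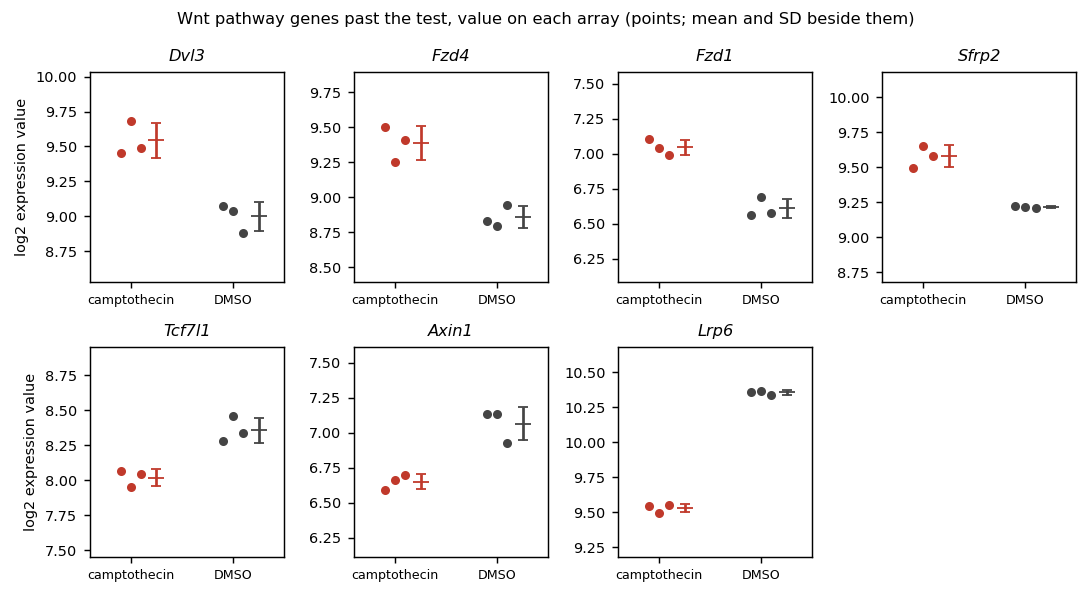
Log2 expression value (y axis, each panel spanning 1.5 log2 units) of the 7 Wnt genes past the test on each array, camptothecin left and DMSO right. Points are arrays, and the bar beside them gives the mean and SD (n = 3). Camptothecin and DMSO arrays do not overlap in any of the 7 panels, with the widest gap in Lrp6.

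Of 6 secreted antagonists, 1 rose (16.7%) and 0 fell by limma, against 11.3% and 9.35% of all genes. The other 5 did not pass, and at an unadjusted p under 0.05 the counts were 2 higher and 0 lower. Sfrp2, a soluble protein that resembles the Wnt-binding part of Frizzled and is expressed by neural progenitors, read 9.50, 9.65 and 9.58 with camptothecin, against 9.22, 9.22 and 9.21 with DMSO. The DMSO arrays were almost equal and all lay below camptothecin. Sfrp2 was 1.28-fold higher (0.36, SE 0.07, adjusted p = 0.0132 by limma), and missed the threshold with ribosomal centring (0.11, adjusted p = 0.198) and without DMSO replicate 2 (0.36, adjusted p = 0.0522). Markers of neural progenitors and astroglia had 0 rises and 1 fall (Pax6) in 8 measured genes by limma, with 1 and 1 at an unadjusted p under 0.05. Their mean level per array was 8.58 to 8.67 with camptothecin and 8.60 to 8.66 with DMSO.

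Dkk1 and Dkk3 belong to the Dickkopf family, of which Dkk1 blocks Lrp5 and Lrp6. Dkk3 read 7.08 to 7.26 with camptothecin and 6.84 to 6.96 with DMSO (0.25, SE 0.08, adjusted p = 0.0621 by limma). Dkk1 was dim and read 6.11, 5.84 and 5.87 with camptothecin, against 5.79, 5.70 and 5.80 with DMSO (0.17, SE 0.09). Sfrp1 had a difference of 0.10 (SE 0.07), and the dim Sfrp4 and Dkk2 of -0.16 (SE 0.11) and -0.26 (SE 0.14).

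Among the transducers, Dvl3 rose and Axin1 fell. Dvl3, a Dishevelled protein that carries the signal from Frizzled, read 9.46, 9.68 and 9.49 with camptothecin, against 9.08, 9.04 and 8.88 with DMSO. The groups did not overlap. Dvl3 was 1.46-fold higher (0.54, SE 0.09, adjusted p = 0.00852 by limma), and passed with ribosomal centring too (0.29, adjusted p = 0.0311). Its relative Dvl1 read 6.54 to 6.74 with camptothecin and 6.34 to 6.45 with DMSO (0.22, SE 0.08, adjusted p = 0.0922 by limma). That sign turned with ribosomal centring (-0.03).

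Axin1, the scaffold of the destruction complex, read 6.59, 6.66 and 6.70 with camptothecin, against 7.13, 7.14 and 6.93 with DMSO. It fell to 75.1% of its DMSO level (-0.41, SE 0.08, adjusted p = 0.0157 by limma), with no overlap. The call was lost without DMSO replicate 1 (-0.38, adjusted p = 0.06) and without DMSO replicate 2 (-0.38, adjusted p = 0.0629). The other parts of the complex did not pass. Apc, which helps to hold beta-catenin in the complex, averaged 10.28 ± 0.10 with camptothecin and 10.16 ± 0.05 with DMSO (SD, n = 3), a change of 0.12 (SE 0.08). Gsk3b, the kinase that marks beta-catenin for degradation, averaged 11.56 ± 0.03 with camptothecin and 11.68 ± 0.03 with DMSO, without overlap, a change of -0.12 (SE 0.06, adjusted p = 0.237 by limma). Ctnnb1, the gene of beta-catenin itself, read 10.30, 10.50 and 10.32 with camptothecin, against 10.38, 10.32 and 10.24 with DMSO. The groups overlapped, and the 95% interval of the change ran from -0.13 to 0.26.

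Axin2, a relative of Axin1, and Dkk1 are known as feedback genes that beta-catenin signalling induces in many tissues, so their upstream sequence is shown beside their values. Of the 40 listed genes, 28 had a promoter window in the RefSeq tables of GRCr8, and the 250 bases before the annotated start were searched on both strands for 3 versions of the core letters known for TCF and LEF factors. The letters CTTTGAT were in 3.18% of all promoters. The version CTTTGAA was in 4.63% of them, and the version CTTTGTT in 5.01%. The versions share their first letters, so 1 site can match only 1 of them. Axin2 and Dkk1 were the members that held a match, 2 each, so 7.14% of the members with a window did, against 12.1% of 27457 promoters. The median GC content of the windows was 66.4% for the members and 52% for all promoters. None of the 5 called genes with a window held these letters, which says only that they are not in this stretch. Both sequences run 5′ to 3′ on the gene's strand with the matches in capitals. The Axin2 window is chr10:94398535-94398784 on the plus strand, with matches starting 232 and 132 bases before the start. The Dkk1 window is chr1:237798651-237798900 on the minus strand, with matches starting 96 and 77 bases before it.
Axin2: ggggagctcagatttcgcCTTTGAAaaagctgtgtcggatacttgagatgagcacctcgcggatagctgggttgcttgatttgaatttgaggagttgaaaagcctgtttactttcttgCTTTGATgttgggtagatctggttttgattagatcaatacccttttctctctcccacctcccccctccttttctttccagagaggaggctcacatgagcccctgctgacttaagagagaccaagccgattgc
Dkk1: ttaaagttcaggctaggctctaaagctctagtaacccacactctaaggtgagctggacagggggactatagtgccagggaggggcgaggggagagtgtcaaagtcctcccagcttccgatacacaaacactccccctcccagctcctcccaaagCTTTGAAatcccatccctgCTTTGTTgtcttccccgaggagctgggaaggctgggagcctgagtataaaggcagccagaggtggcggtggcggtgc

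Neither gene passed the test. Axin2 read 7.61, 7.94 and 7.89 with camptothecin, against 7.68, 7.77 and 7.62 with DMSO. Camptothecin replicate 1 lay below every DMSO array and the other camptothecin arrays above them. The change was 0.12 (SE 0.10, adjusted p = 0.467 by limma; 95% interval -0.12 to 0.37), and that of Dkk1, described above, had an interval from -0.04 to 0.39. Under ribosomal centring the changes were -0.13 for Axin2 and -0.08 for Dkk1.

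Of 3 measured nuclear effectors, Tcf7l1 fell, and Lef1 and Tcf7 did not pass. Tcf7l1, a TCF factor known mainly as a repressor when beta-catenin is absent, read 8.06, 7.95 and 8.04 with camptothecin, against 8.28, 8.46 and 8.34 with DMSO. Every camptothecin array lay below every DMSO array. The change of -0.34 (SE 0.08, adjusted p = 0.0239 by limma) left 79.1% of the DMSO level. The gene had 2 other clusters, at -0.57 (SE 0.10, adjusted p = 0.00928) and -0.24 (SE 0.10, adjusted p = 0.16), also by limma, so all its clusters pointed the same way. The call was the least stable of the 7: it was lost in 7 of the 17 alternatives, among them the fits without any 1 of camptothecin replicate 2, camptothecin replicate 3, DMSO replicate 2 or DMSO replicate 3 (adjusted p from 0.0596 to 0.0851 over these fits by limma). Tcf7, known also for its role in T cells, had a log2 difference of 0.07 (SE 0.08). Lef1, a further partner of beta-catenin, was dim and differed by 0.06 (SE 0.12, 95% interval -0.22 to 0.33).

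The genes that rose were short and those that fell were longer. Annotated genomic spans from GRCr8 were 4.4 kb for Fzd1, 7.55 kb for Sfrp2, 8.87 kb for Fzd4 and 17.2 kb for Dvl3, and 52.2 kb for Axin1, 134 kb for Lrp6 and 165 kb for Tcf7l1. Of the 16 Wnt genes under 30 kb, 4 rose and 0 fell, and 15.2% of all genes under 30 kb rose. Of the 6 at 100 kb or more, 2 fell and 0 rose, and 34.9% of all genes of that span fell. Those not called at 100 kb or more were Gsk3b, Wnt5b, Lrp5 and Lef1, with changes from -0.13 to 0.06. Across the 34 genes, which are not independent replicates and share the same arrays, Spearman's rho of span and change was -0.64. Wnt genes under 10 kb had a median change of 0.18, against 0.10 for all genes of that span. Between 10 and 30 kb the medians were 0.18 for Wnt genes and 0.11 for all genes, and between 30 and 100 kb 0.05 and 0.00. Between 100 and 300 kb both medians were -0.12. The medians of all genes were thus also lower at longer spans.

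**Figure D4:**
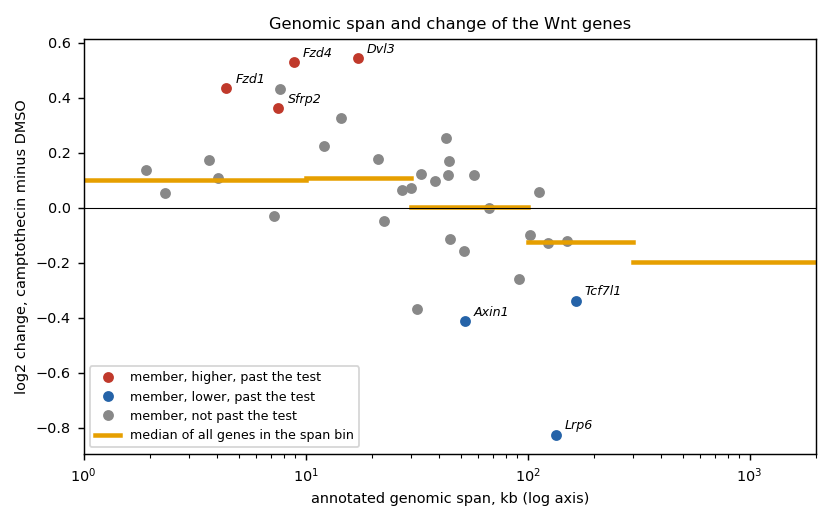
Log2 change (y axis, camptothecin minus DMSO) against annotated genomic span in kb (log axis) for the 34 Wnt genes, with the 7 called genes named. Orange lines give the median of all genes in each span bin. Lrp6 at 134 kb and Axin1 at 52.2 kb lie below the line of their bin, and Dvl3, Fzd4, Fzd1 and Sfrp2 above theirs.

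The rest of the pathway was read through 7 further lists with 117 measured genes, of which 14 rose and 23 fell. These are 12% and 19.7%, against 11.3% of all genes rising and 9.35% falling. The lists were chosen with earlier results of these data known. Most of the falls were nuclear cofactors and cytoplasmic regulators. Among 16 nuclear cofactors 3 rose (18.8%) and 8 fell (50%), with a median change of -0.23 against 0.06 over all genes. The 8 that fell span 70.8 to 187 kb, and 0 of the 16 lay below the median brightness. Of all genes, 16.2% of those of 30 to 100 kb and 33.3% of those of 100 to 300 kb fell. The part of span or brightness in the falls of these lists was not tested. Ep300, an acetyltransferase that beta-catenin recruits, read 9.35, 9.31 and 9.42 with camptothecin, against 10.16, 10.36 and 10.36 with DMSO (-0.93, SE 0.08, adjusted p = 0.000564 by limma). Crebbp, its relative, also fell (-0.70). The corepressor genes Ctbp2 (-0.83, SE 0.08) and Tle4 (-0.76, SE 0.09) and Tbl1xr1, a subunit of corepressor complexes (-0.74, SE 0.07), fell by similar amounts. In the other direction Pygo2, which links beta-catenin complexes to chromatin, rose by 0.73 (SE 0.08). Tle5 (0.51, SE 0.12) and Bcl9l (0.34, SE 0.09) also rose. Of the other Tle and Ctbp genes, Tle1 fell (-0.61), and Tle2 (0.18), Tle3 (-0.23) and Ctbp1 (0.21) did not pass. Cofactors named here other than Ep300, Ctbp2, Tle4 and Tbl1xr1 were added after their values were seen. Over the alternatives 5 to 9 cofactors were lower, while the lower share of all genes ran from 3.52% to 30.3%. The number of cofactors higher was 1 to 5, with 1.14% to 28.2% of all genes higher, and the median of the cofactors stayed below 0. The rises numbered 2 without camptothecin replicate 1 and 1 without any other single array. In these fits 4.58% to 9.29% of all genes were higher, against 11.3% with all arrays.

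**Figure D5:**
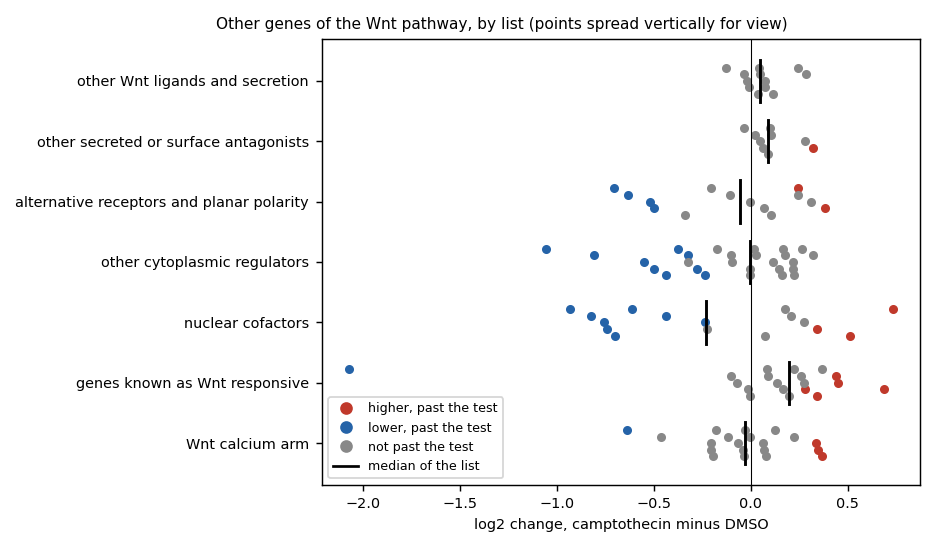
Log2 change (x axis, camptothecin minus DMSO) of the 117 other measured pathway genes in 7 lists. Red and blue points passed the test, grey points did not, and the black bar is the median of the list. Lgr5 lies alone at -2.07, and the nuclear cofactors have the lowest median at -0.23.

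Of 27 other cytoplasmic regulators 0 rose and 9 fell (33.3%) by limma, against 11.3% and 9.35% of all genes. At an unadjusted p under 0.05 the counts in these directions were 3 and 10. The 9 that fell span 34.3 to 166 kb, and 1 of the 27 lay below the median brightness. Csnk1g3, a membrane-bound casein kinase that phosphorylates Lrp6, read 9.38, 9.33 and 9.16 with camptothecin, against 10.40, 10.33 and 10.31 with DMSO. It fell to 48.1% of its DMSO level (-1.06, SE 0.08, adjusted p = 0.000323 by limma). Btrc, the F-box protein that hands beta-catenin to the proteasome, changed by -0.81 (SE 0.07). Cxxc4, an inhibitor that binds Dishevelled, changed by -0.55 (SE 0.07) and the SUMO protease Senp2 by -0.50 (SE 0.09). Over the alternatives 3 (with treat) to 16 (with ribosomal centring) fell, where 3.52% and 30.3% of all genes were lower. The number was 5 without camptothecin replicate 3 or DMSO replicate 1 and 4 without DMSO replicate 2 or 3. In these fits 6.32% to 6.98% of all genes were lower, against 9.35% with all arrays.

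Receptors and polarity genes outside the beta-catenin branch had 2 rises (14.3%) and 4 falls (28.6%) among 14, against 11.3% and 9.35% of all genes. The falls were Prickle2 (-0.70, SE 0.08), Daam1 (-0.63, SE 0.07), Ryk (-0.52, SE 0.07) and Prickle1 (-0.50, SE 0.09). These genes span 72.8 to 345 kb. Ryk is a Wnt receptor that acts in axon repulsion, Daam1 a formin that binds Dishevelled, and the Prickle genes belong to planar cell polarity. The rises were Celsr2 (0.38) and Vangl2 (0.24), named after their values were seen, and neither of them passed with arrays centred on their median. There 0 of the list rose and 5 fell, while 6.29% of all genes were higher and 11.1% lower. The rises also numbered 0 without any 1 of camptothecin replicate 2, camptothecin replicate 3, DMSO replicate 1 or DMSO replicate 3. They numbered 1 without camptothecin replicate 1 or DMSO replicate 2, while the falls numbered 4 or 5 in all these fits. Of all genes, 4.58% to 9.29% were higher and 6.32% to 8.4% lower in them.

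Genes known to respond to Wnt signals in some tissue gave 5 rises (26.3%) and 1 fall (5.26%) among 19, against 11.3% and 9.35% of all genes. Their median change was 0.20, against 0.06 over all genes. Lgr5, a receptor for R-spondins, read 6.43, 6.37 and 6.42 with camptothecin, against 8.51, 8.48 and 8.44 with DMSO. It fell to 23.8% of its DMSO level (-2.07, SE 0.06, adjusted p = 5.93e-06 by limma), and spans 135 kb. The largest rises were Fosl1, an AP-1 subunit (0.68, SE 0.09), Id2, an inhibitor of helix-loop-helix factors (0.45, SE 0.06), and Ccnd1, the cyclin of the first cell cycle gap (0.44, SE 0.09). All of these genes also answer to signals other than Wnt. The rises numbered 2 without DMSO replicate 1 or DMSO replicate 3, 3 without any 1 camptothecin array and 4 without DMSO replicate 2. In these fits 4.58% to 9.29% of all genes were higher, against 11.3% with all arrays. Ccnd1 lost its call in 6 of the 17 alternatives, Id2 in 1 and Fosl1 in 0. With ribosomal centring 2 rose and 4 fell, while 2.43% of all genes were higher and 30.3% lower, and the median of the list turned to -0.06.

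In the calcium arm of the pathway 3 of 20 rose (15%) and 1 fell (5%), against 11.3% and 9.35% of all genes. Camk2a (0.37), Camk2g (0.34) and Camk2b (0.34) encode subunits of a calcium-dependent kinase, and each had an SE of 0.07. Prkca, a protein kinase C gene, changed by -0.64 (SE 0.07). Camk2d (0.07, SE 0.07) and Prkcb (0.13, SE 0.06), also in this list, did not pass and were added after their values were seen. With ribosomal centring 0 of this list rose and 11 fell by limma, while 2.43% of all genes were higher and 30.3% lower. Leaving out DMSO replicate 3 left 0 rises, and leaving out DMSO replicate 1, DMSO replicate 2 or camptothecin replicate 3 left 1. In these fits 4.58% to 6.16% of all genes were higher, against 11.3% with all arrays.

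The remaining lists had few calls. None of 12 other ligand and secretion genes passed by limma, and 1 had an unadjusted p under 0.05. Porcn, the enzyme that attaches lipid to Wnt proteins, read 7.89, 8.27 and 8.13 with camptothecin, against 7.81, 7.81 and 7.81 with DMSO (0.29, SE 0.10, adjusted p = 0.104 by limma). Wls, which carries Wnt proteins to the cell surface and was named after its values were seen, was highest on camptothecin replicate 3, at 9.67 against 9.25 and 9.36 on the other camptothecin arrays and 9.36 to 9.43 with DMSO. Of 9 other antagonists, Wif1, a secreted Wnt-binding inhibitor, rose by 0.32 (SE 0.09, adjusted p = 0.0488 by limma), a call that was lost in 12 of the 17 alternatives.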

How the data were processed

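The deposited values are log2 expression per transcript cluster and array. RMA and oligo are the tools listed by the submitters' processing notes, with no order or role. Software versions, the annotation of probes and the build were not given in the sources used here. Platform annotation gave 1 symbol to 15310 of 29214 clusters, several to 323 and none to 13581, and 15279 of the 15310 matched the RefSeq gene table of GRCr8 by gene ID, which was used for current symbols, spans and promoter sequence.

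Values were tested as deposited with limma 3.58.1 in R 4.3.3 (lmFit and eBayes, camptothecin minus DMSO, 3 arrays each, two-sided), and p-values were adjusted by the Benjamini-Hochberg method across all clusters. SE and 95% intervals are limma's, the intervals unadjusted. The fit was tested on simulated data. No depth applies to arrays, and their number limits the precision. Wnt genes, lists, the rule for named genes and alternatives were chosen with earlier results of these data known. Described in full are Wnt genes past the threshold, or the largest change in a role with none, and up to 4 called genes of each other list. Rose and fell are used of genes past 0.05 only. A comparison of protein sequences was not run, because no protein table was used here.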

Additional observations from a re-analysis of the deposited data

How the results depend on the processing

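The comparison was repeated under 17 other settings. As deposited, 4 Wnt genes were higher and 3 lower, with a median change of 0.09. With ribosomal centring 1 was higher and 12 lower, and the median turned to -0.17. Fzd9 was then at -0.20 (adjusted p = 0.0462 by limma), against 0.05 as deposited (adjusted p = 0.618). With median centring the median was 0.019. Without dim clusters, where fewer clusters are tested, 7 of 24 Wnt genes were higher (29.2%, against 28.2% of all genes). The higher count was 7 of 34 with array weights (20.6%, against 12.8% of all genes). With treat it was 0, against 1.14% of all genes (3 Wnt genes at an unadjusted p under 0.05). The lower count with treat was 1 (2.94%, against 3.52% of all genes). At a threshold of 0.01, 3 were higher (8.82%, against 3.04% of all genes) and 1 lower (2.94%, against 5.61%). Leaving out 1 array gave 3 to 5 higher (8.82% to 14.7%), 1 to 3 lower (2.94% to 8.82%) and a median of 0.06 to 0.10. Over these fits 4.58% to 9.29% of all genes were higher and 6.32% to 8.4% lower. The higher share of the Wnt genes was thus above that of all genes in most settings, in some only slightly. It was below with treat and with quantile normalization again (11.8%, against 12.5%). These shares rest on at most 7 genes, and the list was not tested as a set. Without DMSO replicate 2 Lrp6 was the 1 lower gene. With the replicate number as a block 4 were higher (11.8%, against 6.15% of all genes) and 2 lower (5.88%, against 7.16%). Tcf7l1 was then not called (adjusted p = 0.0737 by limma), nor Camk2g (0.053) or Camk2b (0.0599). Deviations of same-numbered arrays from their group mean correlated at -0.08, 0.02 and 0.09, and those of other pairs at -0.16 to 0.15. With 3 arrays per group, these values cannot show whether the numbers mark shared preparations, which the labels do not state. Over the 7 called genes, 99 of 119 repeats kept the call and 20 lost it, and none turned sign. The 0.01 threshold, treat and the replicate block, among other settings, keep the deposited change, so no sign could turn in them. Over the 27 others 23 of 449 repeats passed with the same sign, 1 passed with the other sign (Fzd9) and 23 changed sign without passing. The cause of these changes was not tested. The smallest change called among all genes was 0.22, and 23 of the 27 uncalled Wnt genes had intervals within 0.5 of 0 on either side.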
